A study of Arabidopsis thaliana with 8 samples.

Results

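The samples labelled til1-1 were compared with wild type (Col-0) at 22 °C in seedlings of Arabidopsis thaliana, using the 4 arrays grown without heat shock of the 8 in the series. The members are these 4 samples, taken by their titles, 2 arrays per genotype. The other 4 arrays hold both genotypes at 37 °C after heat shock. All seedlings were 7 days old, each array held RNA from 1 pool of about 100 plants, and the arrays of a group are described as biological replicates. The position of the til1-1 mutation, its effect on the transcript, its genetic background and the length of the heat shock stand in none of the labels or notes used here.

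Lipocalins are small proteins that fold into a barrel around a pocket for hydrophobic molecules such as lipids and sterols. TIL (AT5G58070) encodes temperature-induced lipocalin, a plasma membrane protein known in Arabidopsis for a part in tolerance of heat and oxidative stress. CHL (AT3G47860) encodes the chloroplastic lipocalin, which is known to protect thylakoid lipids from oxidation. The comparison asks what the mutation changes before any stress, and how large a change could have been missed.

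At 22 °C the transcriptomes of the genotypes were close. In limma's moderated test over 17059 probe sets, 1 probe set (0.00586%) passed an adjusted p of 0.05, and it read higher in the samples labelled til1-1. For 16343 probe sets (95.8%), a difference of 2-fold or more in intensity + 16 was excluded at that same adjusted level. The means compared came from the 4 arrays at 22 °C, while the spread behind every SE, p, interval and bound was estimated over all 8 arrays. Intensities here are linear, in arbitrary units, and differences are log2(intensity + 16) in the samples labelled til1-1 minus Col-0.

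TIL, the gene named by the mutant label, did not separate the groups at 22 °C. Its intensity was 3795.1 and 3132.3 on the Col-0 arrays and 3167.6 and 3047.8 on the arrays labelled til1-1. The groups overlapped, since the lower Col-0 array read below the higher array labelled til1-1. The log2 difference was -0.15 ± 0.09 (SE, n = 2 per group), with a 95% interval from -0.35 to 0.05 and an adjusted p of 1 in limma. In linear terms the interval ran from 0.787 to 1.03 times the Col-0 level. The TIL signal at 22 °C therefore does not bear out the mutant label, and the place of its probes with respect to the lesion was not tested.

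After heat shock the TIL intensity was 21245.7 and 20289.7 on the Col-0 arrays and 5803.7 and 5341.8 on the arrays labelled til1-1. There the difference was -1.90, with an adjusted p of 1.51e-06 in limma. No array is shared between the means compared at the 2 temperatures, but the spread is estimated over both. CHL read 3789.3 and 3716.7 in Col-0 and 3713.7 and 3620.8 on the arrays labelled til1-1, all at 22 °C. The CHL groups did not overlap, by a margin smaller than the gap between replicates, and the difference was -0.03 with a 95% interval from -0.19 to 0.13. CHL turned to a difference of 0.10 when arrays were scaled to spiked controls.

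The probe set that passed is paired with no gene in the annotation used here. Its intensity was 2824.2 and 2579.1 in Col-0 and 4073.9 and 4332.6 in the samples labelled til1-1. Both arrays labelled til1-1 read above both Col-0 arrays, 1.55-fold on average. The log2 difference was 0.64 ± 0.07 (SE, n = 2 per group), the 95% interval ran from 0.48 to 0.79, and the adjusted p was 0.0288 in limma. At 37 °C its difference was 0.25, with an adjusted p of 0.19 in limma. The call at 22 °C was lost when any 1 of the 4 arrays was left out, with adjusted p from 0.0729 to 0.416 in limma, and when only the arrays at 22 °C were fitted, where 0 probe sets passed and 1277 had an unadjusted p under 0.05.

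**Figure D1:**
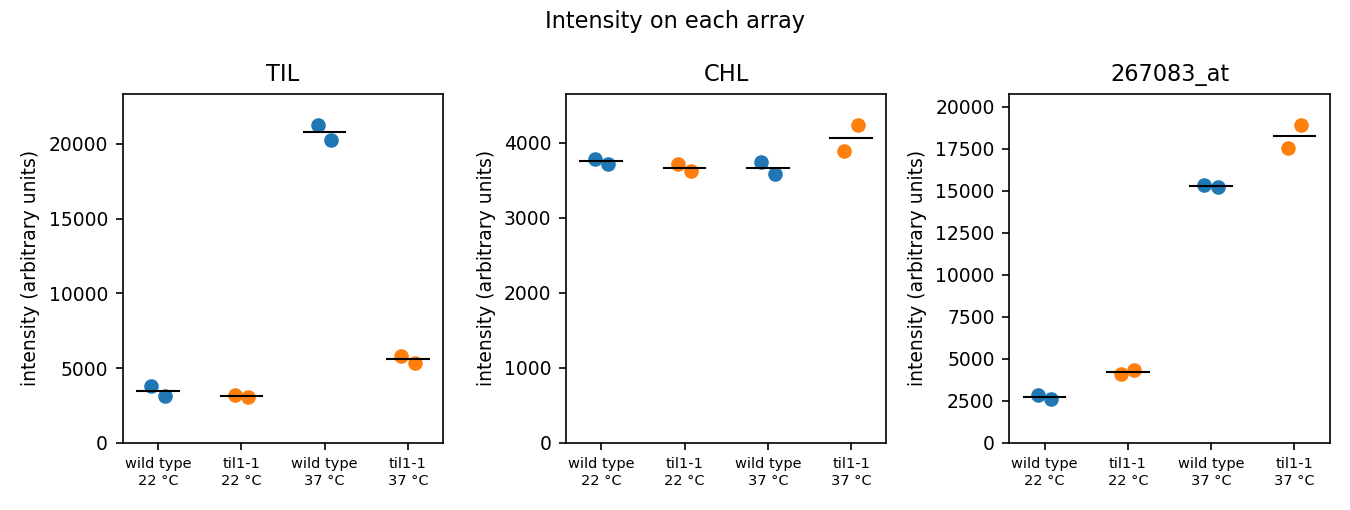
Intensity (linear, arbitrary units) of TIL, CHL and the called probe set on each of the 8 arrays, by genotype and temperature, with 1 point per array and a line at each group mean. At 22 °C the TIL points of the genotypes overlap, while the called probe set reads 4073.9 and 4332.6 in the samples labelled til1-1 against 2824.2 and 2579.1 in Col-0.

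Replicate arrays differed about as much as arrays of different genotype. At least 2-fold differences separated 91 probe sets between the Col-0 replicates and 115 between the replicates labelled til1-1. Across genotypes the 4 pairs of arrays gave 70, 88, 111 and 123 such probe sets. The median difference between genotypes over all tested probe sets was -0.0024. Of the tested probe sets, 97.8% differed by less than 0.5 and 99.84% by less than 1 on the log2 scale.

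Unadjusted p under 0.05 was reached by 336 probe sets (1.97%) that read higher in the samples labelled til1-1 and by 320 (1.88%) that read lower. The groups did not overlap for 18.3% of tested probe sets with the samples labelled til1-1 higher and for 19.9% with them lower. These shares are the background for every count of list members given for this comparison. Differences of at least 1 on the log2 scale were seen for 27 probe sets, of which 21 read higher and 6 lower. Of the 27, 22 had an unadjusted p under 0.05, and 16 of the 27 had a mean intensity at 22 °C under 100.

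**Figure D2:**
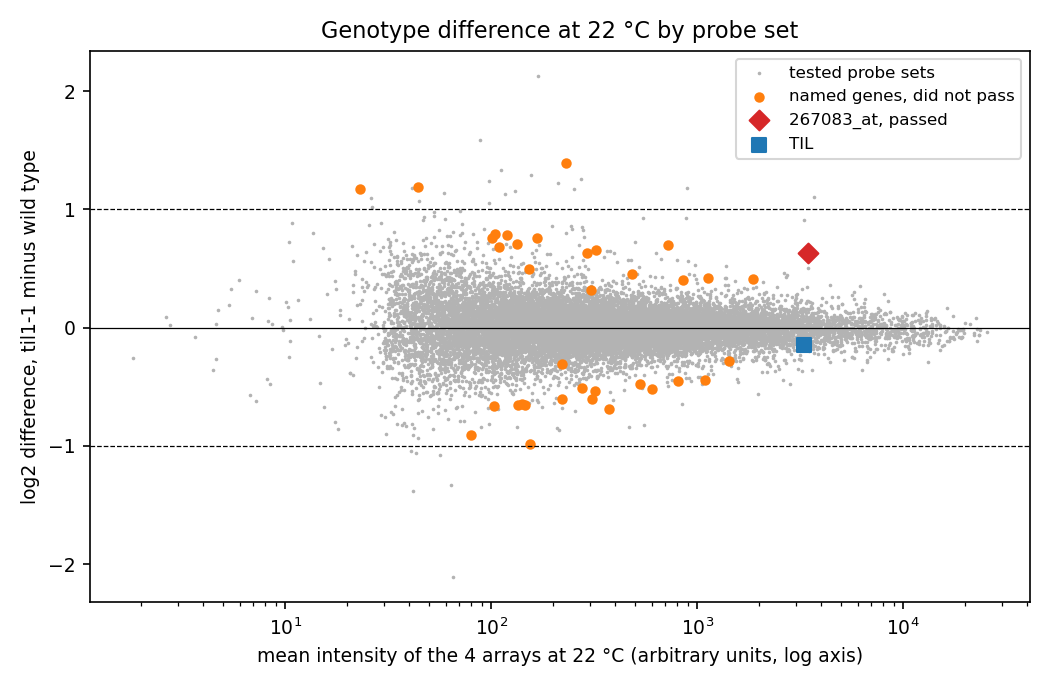
Difference between genotypes at 22 °C (log2, samples labelled til1-1 minus Col-0) against mean intensity for the 17059 tested probe sets. Differences widen toward low intensity and 1 probe set passes the adjusted threshold.

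What size of effect could have been missed depended on brightness. The median SD between replicates was 0.12 in each group at 37 °C, against 0.075 (Col-0) and 0.089 (labelled til1-1) at 22 °C. The 95% interval of a difference reached 0.32 to either side for the median probe set, a factor of 1.25. With only the 4 arrays at 22 °C in the fit it reached 0.256, and 16725 probe sets were bounded within 2-fold. Probe sets were ranked by intensity into 5 bins of equal size. In the brightest bin, the median interval reached 0.196, a factor of 1.15, and 99.9% were bounded within 2-fold. In the dimmest bin it reached 0.677, a factor of 1.6, and 81.6% were bounded. The tighter bound of 0.5 on the log2 scale, a factor of 1.41, held for 10729 probe sets (62.9%). It held for 96.4% of the brightest bin and 4.02% of the dimmest.

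The 716 probe sets not bounded within 2-fold had a median intensity of 54.5, against 372 for those that were. A further 5687 dim probe sets were not tested, and no bound is given for them. To be the lone call over the whole array, the median probe set would have needed a difference of 1.21, or 2.32-fold. A bound within 2-fold therefore leaves room for smaller changes that these arrays could not call.

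**Figure D3:**
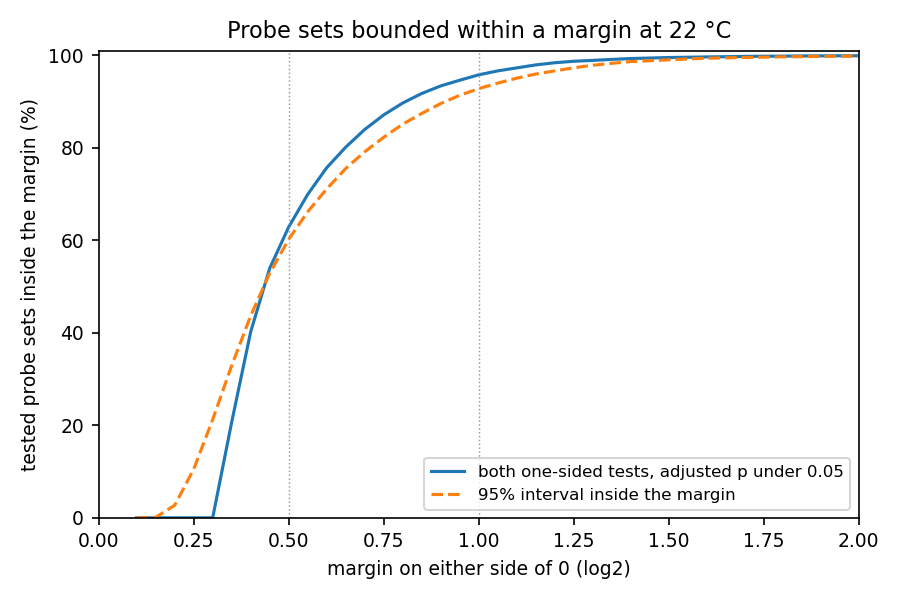
Percent of tested probe sets inside a margin at 22 °C, against the margin on the log2 scale, by adjusted one-sided tests (solid) and by 95% intervals (dashed). By the tests the share reaches 62.9% at a margin of 0.5 and 95.8% at a margin of 1.

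Below the called probe set, the genes of smallest p included few with an annotated name, and none passed the adjusted threshold. Only the 9400 tested probe sets paired with 1 gene were eligible here. The 12 with the smallest p among those reading higher had adjusted p from 0.645 to 0.915 in limma. TET8, a tetraspanin membrane protein, read 1634.8 and 1559.7 in Col-0 and 2234.6 and 2038.7 in the samples labelled til1-1, a difference of 0.42. TET8 gave 0.03 at 37 °C. AT2G18690 had the smallest p of the named genes, with 571.1 and 517.3 in Col-0 and 821.8 and 974.1 in the samples labelled til1-1. Its difference was 0.70 at 22 °C and -0.07 at 37 °C.

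Among the 12 reading lower, adjusted p ran from 0.772 to 0.915 in limma. CER26, which acts in the elongation of fatty acids for cuticular wax, read 689.8 and 742.4 in Col-0 and 484.4 and 506.2 in the samples labelled til1-1. The CER26 difference was -0.52 at 22 °C and -0.35 at 37 °C. ROF2, a peptidyl-prolyl isomerase of the FKBP family linked to heat stress responses, read 244.9 and 244.4 against 188.4 and 200.2. Its difference was -0.31 at 22 °C and 0.01 at 37 °C. Cpn60beta2, a subunit of the plastid chaperonin, read 1583.4 and 1531.4 against 1256.1 and 1301.1, a difference of -0.28. HHP2, a heptahelical membrane protein, differed by -0.54 and ARLA1C, a small GTPase related to ADP-ribosylation factors, by -0.45. All of these groups were apart at 22 °C without passing the test. The genes were picked by p at 22 °C, which favours groups that lie apart, so the separation adds no evidence. Among all tested probe sets, 19.9% were apart with the samples labelled til1-1 lower.

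Among genes with a mean intensity of at least 100 whose groups did not overlap, the largest higher reading was that of AT2G43570, annotated as a putative chitinase. It read 66.3 and 163.2 in Col-0 and 173.2 and 522.5 in the samples labelled til1-1, a difference of 1.39 with an adjusted p of 1 in limma. The groups nearly touched, and the array labelled til1-1 that read 522.5 stood apart from the other 3. The largest lower reading was AT4G33720, at 188.3 and 214.8 in Col-0 and 161.3 and 52.2 in the samples labelled til1-1. Its difference was -0.98 at 22 °C and -0.76 at 37 °C. AT1G47400 read 238.0 and 129.2 against 93.1 and 120.6, a difference of -0.65 at 22 °C and -1.43 at 37 °C.

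The means at 37 °C come from arrays other than those at 22 °C, with the estimate of spread shared. Of the 35 genes named by p or size, 17 kept their sign at 37 °C. Of the 656 probe sets with an unadjusted p under 0.05 at 22 °C, 407 (62%) had the same sign at 37 °C, where 54% of all tested probe sets did.

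**Figure D4:**
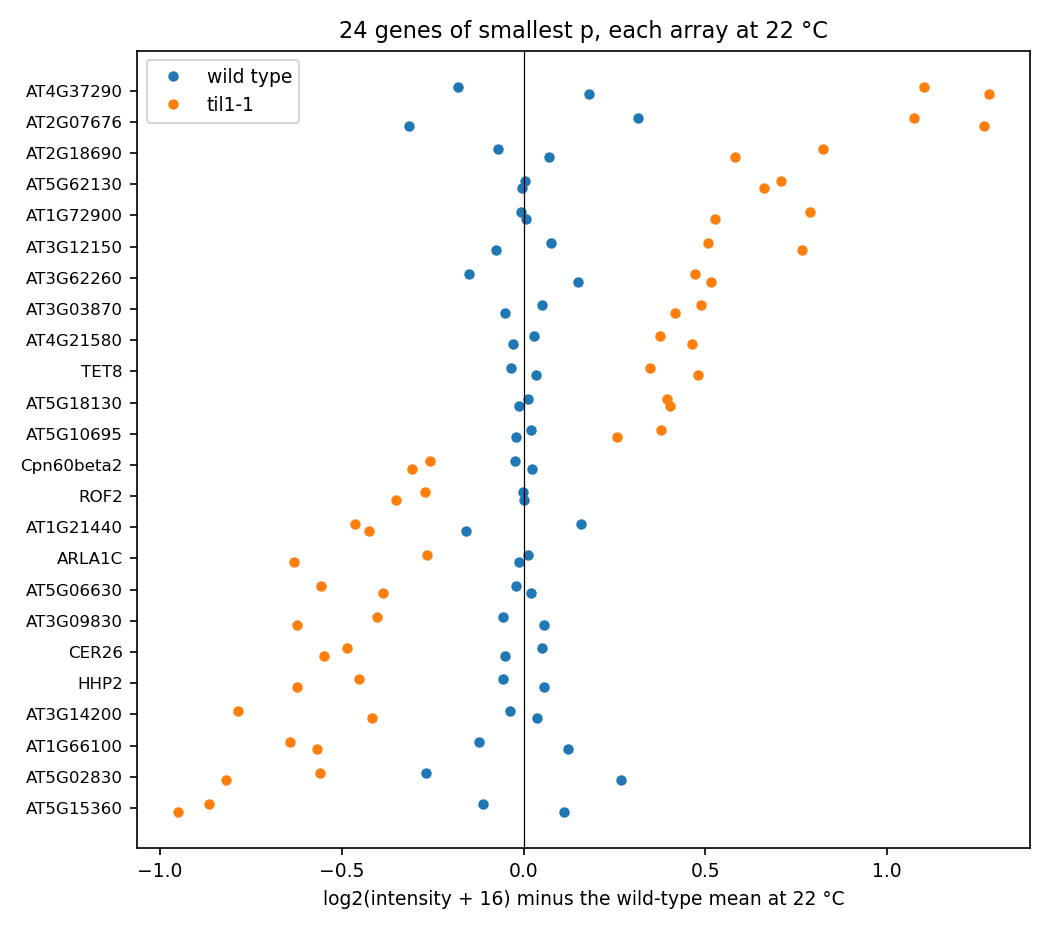
The 24 genes of smallest p, 12 in each direction, on each of the 4 arrays at 22 °C, as log2(intensity + 16) minus the wild-type mean of the gene, 1 point per array. The rule picked these genes by p at 22 °C among probe sets paired with 1 gene. Both arrays labelled til1-1 lie on one side of both wild-type arrays for each.

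No member of the 33 gene lists passed the adjusted threshold. The lists held 364 distinct tested probe sets, of which 14 read higher and 12 lower at an unadjusted p under 0.05, and 338 (92.9%) were bounded within 2-fold. List medians ran from -0.259 to 0.328, and 27 of 33 lay within 0.12 of 0. Scaling to spiked controls moved the median of all probe sets to 0.13 and put 31 of the 33 list medians above 0. The exceptions were the alpha-expansins (-0.106) and the root-enriched genes (-0.133), lists that share EXPA7 and EXPA18. The other negative medians turn with that scaling, and single arrays moved many medians by more than their size.

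Genes of protein folding and of hydrogen peroxide and ascorbate metabolism mostly read close to wild type. All 6 tested chaperones and co-chaperones were bounded within 2-fold, with a median of 0.01 that ran from -0.124 to 0.0894 with 1 array left out, and ROF2 was the one with an unadjusted p under 0.05. The co-chaperone HOP1 read 681.6 and 695.6 in Col-0 and 687.6 and 709.5 in the samples labelled til1-1. In the endoplasmic reticulum, all 9 folding and stress-signalling genes were bounded, with a median of -0.01 (-0.0586 to 0.0134 with 1 array left out). BZIP28, a membrane-bound factor of the unfolded protein response, differed by 0.07, and ERDJ2A, a J-domain protein of the endoplasmic reticulum, by -0.28. The 5 enzymes of hydrogen peroxide and ascorbate metabolism ranged from -0.08 for GR1, a glutathione reductase, to 0.07 for MDAR2, a monodehydroascorbate reductase, and all were bounded.

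Other stress genes were measured less tightly. Of 5 oxidative and mitochondrial stress genes, 3 were bounded, and 4 read higher and 1 lower. Their median was 0.165, from 0.0112 to 0.236 with 1 array left out, and -0.195 at 37 °C. ZAT10, a zinc finger repressor induced by many stresses, read 546.5 and 198.7 in Col-0 and 1045.9 and 393.4 in the samples labelled til1-1. Replicate 1 was the higher in both genotypes and the groups overlapped. Its difference of 0.92 had a 95% interval from 0.01 to 1.84. GSTU20, a tau-class glutathione transferase, read 2341.6 and 2366.4 against 1521.0 and 1657.0, a difference of -0.56, while GSTU22 differed by 0.33. Of 7 tested calmodulin-like genes, 0 passed in limma at an adjusted or an unadjusted p of 0.05, and 5 read higher and 2 lower. Their median of 0.328 was the value of CML37, which read 1.2 and 4.2 in Col-0 and 14.4 and 2.0 in the samples labelled til1-1 and passed the filter through its signal after heat shock. The median was 0.183 when the dimmer 50% of probe sets was left out, 0.212 without Col-0 replicate 1, and -0.167 at 37 °C.

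Autophagy genes, which build the membrane that encloses cargo for the vacuole, leaned one way. All 11 tested members read higher in the samples labelled til1-1, where 49.2% of all tested probe sets did. For 8 of them the groups did not overlap, against 18.3% of all tested probe sets on that side. The list median was 0.141 against -0.0024 over all probe sets, running from 0.106 to 0.21 with 1 array left out. ATG8G, one of the ubiquitin-like ATG8 proteins, read 266.3 and 201.9 in Col-0 and 300.8 and 335.1 in the samples labelled til1-1, a difference of 0.43. ATG8F differed by 0.16 and ATG3, the enzyme that attaches ATG8 to lipid, by 0.01. None passed the test, all were bounded within 2-fold, and the ATG8 probe sets may share sequence. At 37 °C the median was 0.0208.

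Genes of roots and cell expansion mostly read lower. Of 8 alpha-expansins, which loosen cell walls, 7 read lower, with a median of -0.236 that was -0.151 without til1-1 replicate 1. For 5 of them the groups did not overlap, against 19.9% of all tested probe sets on that side. In limma, 0 of the 8 had an unadjusted p under 0.05. Among the 3 root-enriched genes, EXPA7 and EXPA18 of root hairs differed by -0.29 and -0.26 and PYK10, a root beta-glucosidase, by -0.11. EXPA7 and EXPA18 are also counted among the 8 alpha-expansins. PYK10 read 16406.3 and 18183.1 in Col-0 and 15847.0 and 16160.1 in the samples labelled til1-1. Of 8 photosystem and rubisco genes, 7 read lower, with a median of -0.111. That median was -0.0156 without til1-1 replicate 1, -0.0357 without Col-0 replicate 2, and 0.151 at 37 °C. In whole seedlings, fewer cells of a type and less RNA per cell cannot be told apart. The reference genes also read lower, with UBC21 at -0.09, GAPC2 at -0.10 and ACT11 at -0.32, and their part in these lists was not tested.

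Of 7 tested genes of seed storage, late embryogenesis (LEA) and reserve mobilisation, 4 read lower and 3 higher, with a median of -0.0782. It was -0.302 without Col-0 replicate 1 and -0.165 without til1-1 replicate 1. Without Col-0 replicate 2 it was -0.0761, and without til1-1 replicate 2 it was -0.0722. The median turned to 0.0363 when the dimmer 50% of probe sets was left out. ICL, the isocitrate lyase of reserve mobilisation, read 137.3 and 123.0 in Col-0 and 85.7 and 80.1 in the samples labelled til1-1. The ICL difference was -0.56 at 22 °C and -1.11 at 37 °C. LEA4-5 and LEA18, late embryogenesis proteins, differed by -0.79 and -0.71. OLEO3, an oil body protein, read 39.0 and 28.3 in Col-0 and 46.7 and 47.9 in the samples labelled til1-1, a difference of 0.36. AT2G46140 differed by 0.15, and the bright AT2G44060, at 4092.8 to 4345.7 on the 4 arrays, by -0.08.

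Defence genes, regulators and wall enzymes had 0 members past the adjusted test in limma, and those with an unadjusted p under 0.05 are named here. The 4 tested defence genes all read higher, with a median of 0.263, the second highest of the lists, and 2 were bounded. Without Col-0 replicate 1 that median was 0.118, without til1-1 replicate 2 it was 0.157, and without Col-0 replicate 2 it was 0.436. PDF1.2b, a defensin, read 30.7 and 32.5 in Col-0 and 45.7 and 72.3 in the samples labelled til1-1. The 6 WRKY factors were all bounded and had a median of 0.117. It was 0.0163 without til1-1 replicate 1, 0.055 without til1-1 replicate 2, 0.0371 without Col-0 replicate 2, and 0.0194 when the dimmer 50% of probe sets was left out. The 16 bZIP factors, all bounded, had a median of 0.00703 (-0.0458 to 0.0473 with 1 array left out). Of 9 auxin response genes, IAA18, a repressor of auxin signalling, differed by 0.30 and GH3.5, an enzyme that conjugates auxin, by 0.26, both at an unadjusted p under 0.05. Of 29 wall enzymes, XTH16, XTH32 and GH9C2 read lower at that level, by -0.41, -0.29 and -0.27.

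Genes beside TIL on chromosome 5 were also examined. Of the 20 genes to either side, 18 probe sets were tested and their median was 0.0618 (0.126 without til1-1 replicate 1). AT5G58120 differed by 0.62, with 37.5 and 59.4 in Col-0 and 78.1 and 84.9 in the samples labelled til1-1. The 69 plastid-encoded genes had a median of -0.0163 (-0.136 to 0.106 with 1 array left out), and 68 were bounded. Of the 66 loci whose IDs begin AT2G07, 42 were too dim to be tested. Of the 24 tested, 4 read higher and 1 lower at an unadjusted p under 0.05 in limma. The shares over all tested probe sets were 1.97% and 1.88%. AT2G07676 was the furthest, at 3.2 and 13.7 in Col-0 and 41.5 and 34.3 in the samples labelled til1-1, near the bottom of the scale. At 37 °C it read 394.3 and 467.0 in Col-0 and 398.6 and 328.9 in the samples labelled til1-1. It passed the filter through that signal after heat shock.

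**Figure D5:**
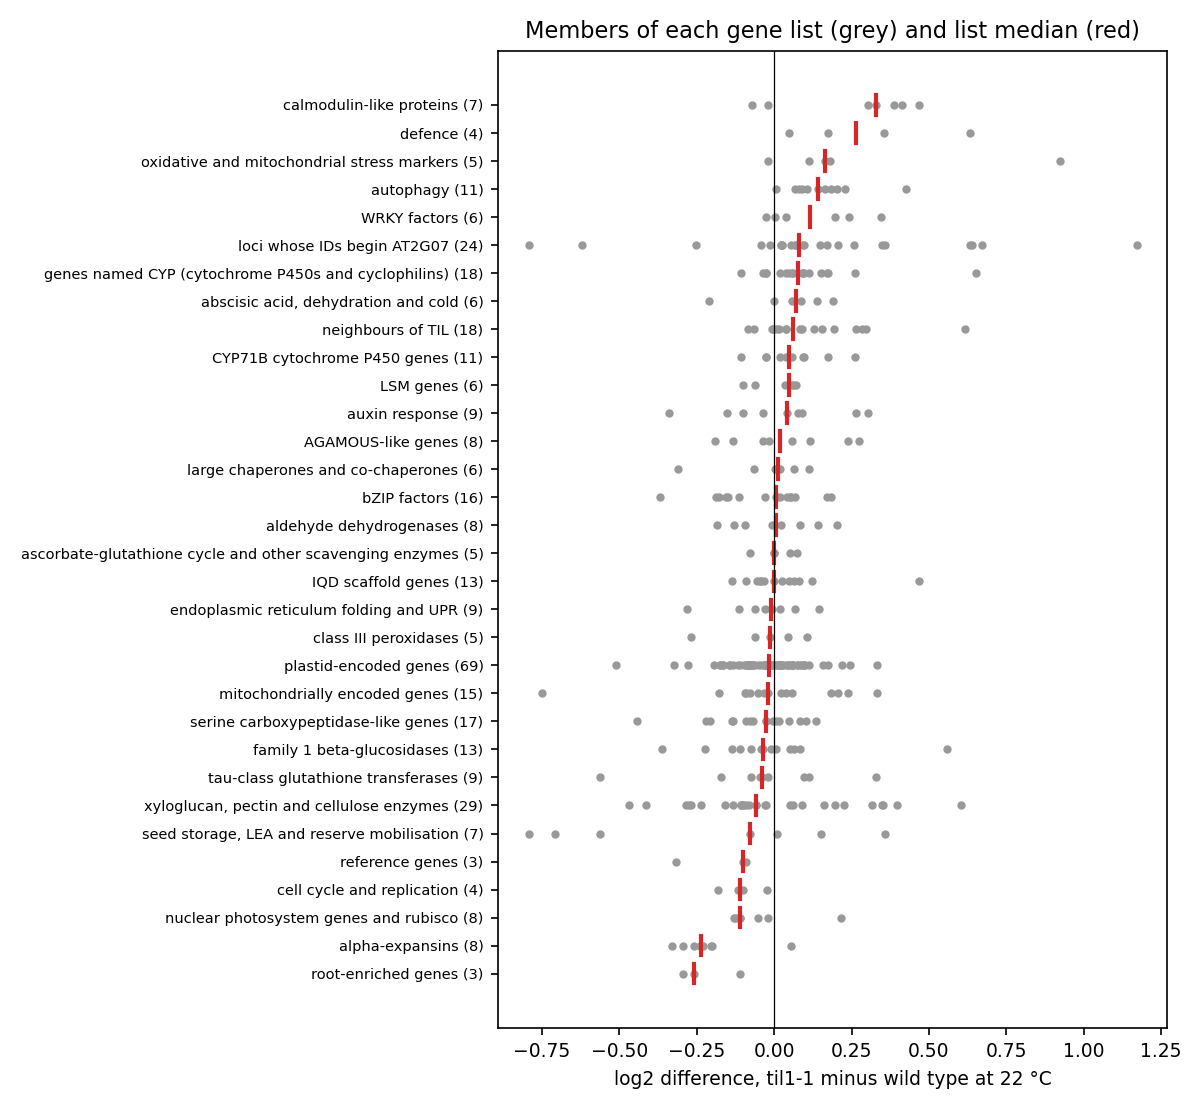
Differences of list members at 22 °C (log2, samples labelled til1-1 minus Col-0), 1 point per gene, with the median of each list as a red bar and the number tested in brackets; the lipocalins are not drawn. The medians run from -0.259 for root-enriched genes to 0.328 for calmodulin-like genes, the latter set by CML37, which is near the bottom of the scale at 22 °C.

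Array medians at 22 °C lay between 197.4 and 203.85. The ratio of 3′ to 5′ control signal was 10.2 to 12.1 for actin and 1.63 to 1.73 for GAPDH. The seedling label was borne out by leaf and root genes on all 4 arrays: LHCB4.1, a light-harvesting protein, read at least 18466.9 and PYK10 at least 15847.0. Vascular markers were represented by too few probe sets to be described.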

How the data were processed

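RNA from pooled seedlings was hybridised to Affymetrix arrays, 1 per sample. The deposited values are linear intensities made by the authors with GCOS, per the submitters' processing notes; its version and algorithm are stated nowhere in them. The trimmed mean was 500.04 or 500.05 on every array. No read depth exists, and the number of arrays limits the precision.

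Control probe sets (64 of 22810) and the 25% with the lowest mean were left out. A limma model (3.58.1, R 4.3.3) with 4 groups was fitted to log2(intensity + 16) on all 8 arrays, using a variance trend on intensity, and p was adjusted by Benjamini-Hochberg. Bounds came from paired one-sided moderated tests against the margin. The fit was tested on simulated data. Alternatives changed the pseudocount, filter, scaling, samples, moderation and block.

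Of the probe sets, 13513 are paired with 1 gene, 503 with several and 8730 with none; 13436 matched the TAIR10.1 table, which supplied symbols. Genes without an annotated name are given by locus only. Named genes were both lipocalins, every call and, among probe sets paired with 1 gene, the 12 smallest p in each direction. The 6 largest differences in each direction came from such probe sets with non-overlapping groups and mean intensity of at least 100. List extremes were also eligible.

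The comparison and the gene lists were chosen with earlier results of these data known. After the annotation and values were seen, lists with fewer than 3 matched members were dropped (small heat shock proteins, lipid metabolism, MYB, NAC, ERF, ribosomal, clock and vascular genes). The lipocalin list, with 2 members, was kept. A flavonoid list was dropped and 1 gene was taken out of the endoplasmic reticulum list because their symbols matched unrelated genes, and patterns for defence and peroxidase genes were narrowed for that reason. Same-numbered replicates at 22 °C had deviations that correlated at 0.14, and other pairs of groups ran from -0.036 to 0.11. The numbers were not taken to pair the samples, though such correlations cannot exclude a pairing.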

Additional observations from a re-analysis of the deposited data

Results flagged for a closer look

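The genotype difference of TIL at 37 °C minus that at 22 °C was -1.75 on the log2 scale. It was singled out because the difference between temperatures was itself tested, as the interaction in limma, and passed with an adjusted p of 0.000204. TIL was the 1 probe set that passed that test. The groups of 2 arrays are too small for a check of single outlying arrays.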

How the results depend on the processing

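The count of 1 call became 0 with no filter, with only the 4 arrays at 22 °C and with no intensity trend, 2 with array weights, and 3 with scaling to spiked controls. It stayed at 1 under the other pseudocounts, the 50% filter, quantile scaling, equal medians and robust moderation. Leaving out 1 array gave 0 to 2 calls, a TIL difference from -0.287 to -0.0116, and 15094 to 15207 bounded probe sets. The bounded count was 15162 with pseudocount 1 and 19060 of 22746 with no filter. With a replicate block the count was 3 over 8 arrays and 250 over the 4 arrays at 22 °C, where 1 residual degree of freedom remains. The correlation of deviations cannot show whether replicate numbers pair the samples, so a pairing is not excluded. The CHL difference became 0.0996 with spiked controls. Of 38 named probe sets, 25 were still tested under the 50% filter, all with the same sign. List medians above 0 numbered 17, and 31 with spiked controls. The cause of these changes was not tested. The signal of dim probe sets limits the bounds.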
